A study of Mus musculus with 8 samples.

Results

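The RUNX factor genes were taken as Runx1, Runx2 and Runx3, which encode the 3 mammalian RUNX transcription factors, and Cbfb, which encodes their shared partner. These are 4 of 21701 mouse protein-coding genes. Each locus was the GENCODE gene body on build mm10 with 50 kb added on each side, and all peaks overlapping these windows were counted. The 4 windows covered 1048 kb and held 349 peaks of 8 lists. Merging overlapping peaks gave 98 regions at these loci, of 123412 in the genome, and these were numbered along the chromosome within each locus. Where the arms are compared for a single target, the counts are of regions merged from that target's own pair of lists, so they can differ by 1 from the numbered set.

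The 8 lists came from CUT&Tag, an assay in which a transposase tethered by an antibody cuts the DNA around the bound protein, and the cut fragments are sequenced. The cells were mouse embryonic fibroblasts (MEFs) on day 5 of reprogramming. In one arm, labelled Nanog+Oct4, they received wild-type Nanog with Oct4 (NanogWT). In the other, labelled NanogN70+Oct4, they received Oct4 with Nanog fused to the BRG1-interacting domain of SS18 (NanogBiD); that the label means this fusion was read from the study's text. Both arms thus shared Oct4, and per the study's methods the factors were carried by retroviral vectors into MEFs that carried an Oct4-GFP reporter. The antibodies recognised FLAG, the tag carried by NANOG, and BRG1 (Smarca4), the motor subunit of BAF, which remodels nucleosomes. They also recognised H3K27ac, a mark of active promoters and enhancers, and H3K4me1, a mark of enhancers. Each of the 8 groups was 1 library in which the authors had merged replicates, so no value below has a replicate error and no difference between arms could be tested.

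RUNX proteins bind DNA through the Runt domain, which recognises TGTGGT or its complement ACCACA. CBFB does not touch DNA itself but strengthens the binding of each RUNX protein. RUNX1 is required for the emergence of blood stem cells, RUNX2 for osteoblast differentiation, and RUNX3 acts in T cells and in sensory neurons of the dorsal root ganglia. Each RUNX gene has a distal promoter (P1) and a proximal promoter (P2), and both give rise to proteins with different N-termini.

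The distal promoters of all 3 RUNX genes were found to share a paired RUNX site, and they are printed for that reason. The sequences are those of the RefSeq promoter table on GRCm38.p6, each 300 bases long, ending 50 bases after the table's annotated start and written 5' to 3' on its gene's strand. Runx1 lies at chr16:92826025-92826324 on the minus strand, Runx2 at chr17:44814578-44814877 on the minus strand, and Runx3 at chr4:135120395-135120694 on the plus strand. Capitals mark each RUNX match (ACCACA or TGTGGT).
Runx1 distal promoter: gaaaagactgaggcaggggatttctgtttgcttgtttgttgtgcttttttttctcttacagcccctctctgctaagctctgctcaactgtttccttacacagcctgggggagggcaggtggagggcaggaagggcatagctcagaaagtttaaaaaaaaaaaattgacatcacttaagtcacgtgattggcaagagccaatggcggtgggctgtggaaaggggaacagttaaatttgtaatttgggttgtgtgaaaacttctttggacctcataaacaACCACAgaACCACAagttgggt
Runx2 distal promoter: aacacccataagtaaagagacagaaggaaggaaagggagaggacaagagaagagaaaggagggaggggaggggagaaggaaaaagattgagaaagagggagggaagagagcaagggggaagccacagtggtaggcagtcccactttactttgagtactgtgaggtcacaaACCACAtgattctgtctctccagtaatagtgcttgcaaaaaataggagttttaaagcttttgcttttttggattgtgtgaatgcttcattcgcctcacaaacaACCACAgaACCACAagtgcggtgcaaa
Runx3 distal promoter: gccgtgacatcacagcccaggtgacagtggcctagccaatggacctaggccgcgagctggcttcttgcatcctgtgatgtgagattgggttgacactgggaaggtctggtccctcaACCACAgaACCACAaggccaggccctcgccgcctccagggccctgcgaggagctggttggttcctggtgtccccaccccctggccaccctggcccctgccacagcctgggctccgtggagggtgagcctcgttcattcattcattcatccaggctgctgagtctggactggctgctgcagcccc

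In each of the 3, 2 matches began 8 bases apart with the same 2 bases between them, within a stretch of 18 bases (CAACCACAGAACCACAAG) that was identical in all 3 promoters. The paired site ACCACAGAACCACA was taken from that shared stretch, so these 3 promoters hold it by construction. It occurred in 4 of 32851 promoters of the table, or 0.0122%, a count that is no test of its rarity. These were the distal promoters of Runx1, Runx2 and Runx3 and that of Gm16225, whose promoter overlaps that of Runx3. For comparison, 595 promoters (1.81%) held 2 or more RUNX matches at any spacing, and 16.8% held at least 1. The proximal promoters of Runx1 and Runx3 and the promoter of Cbfb held none in this window. The table had no entry for the proximal promoter of Runx2.

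A further 4 windows of 300 bases, centred on a FLAG summit, carry the binding differences described later. Runx2 region 33 had the greatest FLAG height ratio among Runx2 regions bound in both arms, and Runx2 region 32 lay next to it. Runx3 region 12 had FLAG and BRG1 in NanogBiD alone, and Runx2 region 15 held 3 octamer matches. Regions 15 and 32 were chosen after their values were seen. They are given on the plus strand of GRCm38, at chr17:44611635-44611934, chr17:44767353-44767652, chr17:44770983-44771282 and chr4:135221821-135222120 in the order printed. Capitals mark matches on either strand to RUNX (TGTGGT), AP-1 (TGANTCA), OCT (ATGCAAAT), SOX (ACAATG or ACAAAG) and TEAD (GGAATG), and neighbouring matches can overlap.
Runx2 region 15: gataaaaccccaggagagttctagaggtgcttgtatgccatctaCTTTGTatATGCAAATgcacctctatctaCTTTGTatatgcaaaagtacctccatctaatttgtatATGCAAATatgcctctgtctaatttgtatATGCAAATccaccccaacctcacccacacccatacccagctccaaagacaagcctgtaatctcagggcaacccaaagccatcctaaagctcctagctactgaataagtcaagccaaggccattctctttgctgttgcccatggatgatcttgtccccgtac
Runx2 region 32: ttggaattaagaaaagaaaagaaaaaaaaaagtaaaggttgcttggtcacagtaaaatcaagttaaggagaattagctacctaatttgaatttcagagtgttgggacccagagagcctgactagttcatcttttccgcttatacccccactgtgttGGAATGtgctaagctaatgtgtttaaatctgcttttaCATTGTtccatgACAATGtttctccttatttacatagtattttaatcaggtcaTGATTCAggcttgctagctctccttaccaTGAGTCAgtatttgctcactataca
Runx2 region 33: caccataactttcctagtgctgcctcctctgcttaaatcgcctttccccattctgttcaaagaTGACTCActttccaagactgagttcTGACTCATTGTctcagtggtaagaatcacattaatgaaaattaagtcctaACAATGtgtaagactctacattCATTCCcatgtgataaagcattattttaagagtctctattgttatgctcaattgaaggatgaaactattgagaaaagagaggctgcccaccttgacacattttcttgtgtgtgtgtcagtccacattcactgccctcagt
Runx3 region 12: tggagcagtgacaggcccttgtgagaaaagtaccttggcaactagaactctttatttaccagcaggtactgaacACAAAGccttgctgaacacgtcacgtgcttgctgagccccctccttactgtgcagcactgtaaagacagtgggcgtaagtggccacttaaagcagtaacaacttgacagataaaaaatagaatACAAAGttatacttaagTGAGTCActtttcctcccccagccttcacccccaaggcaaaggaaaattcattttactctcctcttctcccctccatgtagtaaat

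In region 15 the octamer matches began at positions 53, 111 and 140, and SOX matches at 45 and 74, so that matches of one kind were spaced by 29 or 58 bases. One SOX match and one octamer there formed the unit CTTTGTatATGCAAAT. Regions 32 and 33 each held 2 AP-1 matches, 2 SOX matches and 1 TEAD match, and in region 33 one AP-1 match ran into a SOX match (TGACTCATTGT). Runx3 region 12 held 1 AP-1 and 2 SOX matches. None of these 4 windows held a RUNX match.

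Peak numbers at the RUNX loci were higher in NanogBiD for FLAG, BRG1 and H3K27ac and lower for H3K4me1, as they were over the whole lists. FLAG gave 41 peaks in NanogWT and 47 in NanogBiD at the 4 loci, so that the ratio was 1.15 (exact binomial 95% interval 0.738 to 1.79), beside 1.27 for the whole lists. BRG1 gave 27 and 37 peaks, a ratio of 1.37 (0.812 to 2.34), beside 1.74. H3K27ac gave 31 and 41 peaks, a ratio of 1.32 (0.809 to 2.18), beside 1.20. H3K4me1 gave 76 and 49 peaks, a ratio of 0.645 (0.441 to 0.935), beside 0.791. The H3K4me1 interval alone excluded 1, and each of the 4 intervals contained the ratio of its own whole lists. That H3K4me1 interval included 1 with scores of at least 100 (0.322 to 1.20), with heights of at least 15 (0.336 to 1.01), without Runx1 (0.397 to 1.02) and without Runx2 (0.436 to 1.12). These intervals cover counting error only, and the sequencing depth of the libraries is unknown. The lists themselves differed in size, from 30859 to 74782 peaks, and the part of this difference in the counts was not tested. In such bulk libraries, signal in more cells and more signal per cell cannot be told apart.

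With the 20000 highest-scoring peaks of every list, a setting that alters both list size and score threshold, the directions did not hold. The FLAG ratio was then 0.583 (0.195 to 1.61) and the BRG1 ratio 0.588 (0.241 to 1.36). The H3K27ac ratio was 0.857 (0.362 to 1.997) and the H3K4me1 ratio 1 (0.48 to 2.08). All of these intervals included 1. The lists are equal in size at this setting, so its ratios cannot be set beside the whole-list ratios above. The H3K27ac ratio was also below 1, at 0.941, with heights of at least 15.

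**Figure D1:**
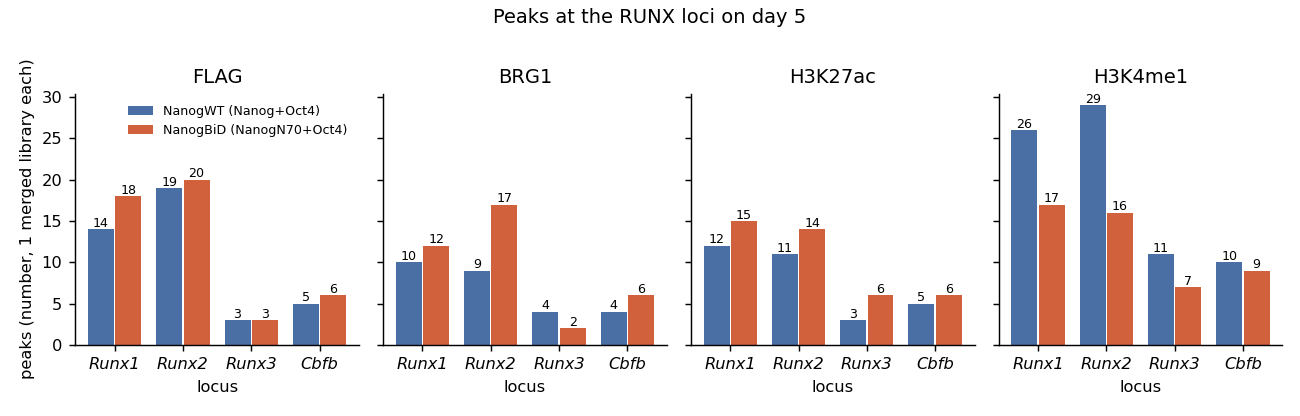
Number of peaks (vertical axis) overlapping each locus (horizontal axis) for the 4 targets, with 1 merged library per bar and no error bar because replicates were merged. BRG1 at Runx2 stood at 9 peaks in NanogWT and 17 in NanogBiD, and H3K4me1 was lower in NanogBiD at all 4 loci.

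By number of listed peaks, Runx2, the osteoblast regulator, showed the widest difference in BRG1. It had 9 BRG1 peaks in NanogWT and 17 in NanogBiD, Runx1 had 10 and 12, Cbfb 4 and 6, and Runx3 4 and 2. On a log scale the Runx3 ratio of 0.5, from few peaks, lay farther from 1 than that of Runx2. With all listed peaks, BRG1 peaks were more numerous in NanogBiD at 3 of the 4 genes, where 64.7% of all gene windows with a BRG1 peak showed more and 12.8% fewer. The Runx2 change, 0.85 as log2 of the ratio of peaks plus 1, was higher than that of 83.7% of the 7479 genes with at least 10 BRG1 peaks in both arms together. Its ratio of 1.89 had an interval of 0.796 to 4.81, which includes 1 and the whole-list ratio. It became 1.2 (5 and 6 peaks) with scores of at least 100, 3.33 (3 and 10 peaks) with heights of at least 15, and 0.8 (5 and 4 peaks) with the 20000 highest-scoring peaks. The direction did not hold at Runx1, which had 9 and 8 BRG1 peaks in the gene body alone, 10 and 10 with flanks of 20 kb, 4 and 4 with scores of at least 100 or heights of at least 15, and 6 and 3 with the 20000 highest-scoring peaks. Cbfb had 3 and 2 with heights of at least 15 and 3 and 3 with the 20000 highest-scoring peaks. Runx3 had 6 and 7 with flanks of 100 kb and 3 and 0 with the 20000 highest-scoring peaks. At that last setting the difference was wider at Runx1 and Runx3 than at Runx2.

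FLAG peaks numbered 14 in NanogWT and 18 in NanogBiD at Runx1, 19 and 20 at Runx2, 3 and 3 at Runx3, and 5 and 6 at Cbfb. More FLAG peaks were found in NanogBiD at 3 of 4 genes, beside 59.9% of all gene windows with more and 18.0% with fewer. H3K27ac peaks numbered 12 and 15 at Runx1, 11 and 14 at Runx2, 3 and 6 at Runx3, and 5 and 6 at Cbfb. All 4 genes had more H3K27ac peaks in NanogBiD, beside 47.4% of gene windows with more and 19.6% with fewer. The H3K27ac direction did not hold at Runx1, which had 12 and 11 peaks in the gene body alone, 7 and 6 with heights of at least 15 and 6 and 5 with scores of at least 100. It turned at Runx3 as well, with 3 and 0 peaks at heights of at least 15 and 1 and 0 at scores of at least 100. The FLAG direction did not hold at Runx2 either, which had 7 and 4 peaks with the 20000 highest-scoring peaks and 23 and 22 with flanks of 100 kb. Equal FLAG numbers stood there with scores of at least 100 (11 and 11), in the gene body alone (17 and 17), and with flanks of 20 kb or coding transcripts only (18 and 18 in both). Cbfb had 2 and 0 FLAG peaks with the 20000 highest-scoring peaks, 3 and 3 with scores of at least 100 and in the gene body alone, and 2 and 2 with heights of at least 15. No FLAG or H3K27ac ratio of a single gene had an interval that excluded 1.

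H3K4me1 peaks were fewer in NanogBiD at every gene when all listed peaks were counted. Runx1 had 26 peaks in NanogWT and 17 in NanogBiD, Runx2 29 and 16, Runx3 11 and 7, and Cbfb 10 and 9. Fewer H3K4me1 peaks in NanogBiD were also seen at 60.8% of all gene windows, and more at 19.1%. At Runx2 the log2 change of peaks plus 1 was -0.82, and 6.69% of the 12526 genes with at least 10 H3K4me1 peaks had a lower value. The Runx2 ratio of 0.552 had an interval of 0.280 to 1.05. With the 20000 highest-scoring peaks Runx1 had 6 and 7 H3K4me1 peaks, Runx2 4 and 4 and Runx3 3 and 3, and with heights of at least 15 Cbfb had 5 and 7.

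At the promoters, Runx1 and Cbfb carried all 4 targets in both arms, whereas Runx3 carried few peaks. Heights are the highest tag pileup of any peak overlapping 2 kb either side of an annotated start, so that a summit can itself lie farther away, and are not scaled to depth. The Runx1 proximal promoter (chr16:92696343-92700421) had FLAG heights of 29 in NanogWT and 28 in NanogBiD, BRG1 of 17 and 23, H3K27ac of 32 and 27, and H3K4me1 of 22 and 20. Peaks reaching the Runx1 distal promoter had FLAG heights of 11 and 13, BRG1 of 11 and 11, H3K27ac of 13 and 10, and H3K4me1 of 19 and 18. The proximal promoter thus had the higher FLAG, BRG1 and H3K27ac summits in both arms. No peak covered the distal start, and the nearest regions lay beside it, 0.629 kb downstream in both arms and 1.4 kb upstream in NanogBiD. The FLAG height of 13 belonged to the upstream region, whereas FLAG stood at 11 and 10 in the downstream one.

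At the Runx2 proximal promoter, FLAG heights were 17 in NanogWT and 15 in NanogBiD, BRG1 heights 8 and 18, H3K27ac heights 22 and 17, and H3K4me1 heights 18 and 18. The FLAG and H3K4me1 heights and the BRG1 height of 18 came from region 31, 0.961 kb upstream of the start. Region 31 had no BRG1 peak in NanogWT. At the region over the start itself BRG1 stood at 8 and 12, a ratio of 1.5 (0.564 to 4.23). FLAG stood there at 14 and 15, and no H3K4me1 peak was listed in either arm. For peaks reaching the Runx2 distal promoter, FLAG stood at 11 and 19, H3K27ac at 9 and 10, and H3K4me1 at 16 and 10. Neither arm had a BRG1 peak there. The region over the distal start had FLAG heights of 11 and 12, and its NanogBiD summit lay at chr17:44814831, inside the promoter sequence printed above. The height of 19 belonged to region 36, 1.93 kb downstream, which had a FLAG peak in NanogBiD alone.

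The Runx3 distal promoter had no peak in any of the 8 lists. Its proximal promoter had a BRG1 peak of height 11 and an H3K4me1 peak of height 19 in NanogWT only, an H3K27ac peak of height 13 in NanogBiD only, and no FLAG peak. The single Cbfb promoter (chr8:105169884-105172434) had FLAG heights of 13 and 19, BRG1 of 17 and 16, H3K27ac of 31 and 35 and H3K4me1 of 18 and 18. No height ratio at a member's promoter had an interval that excluded 1.

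**Figure D2:**
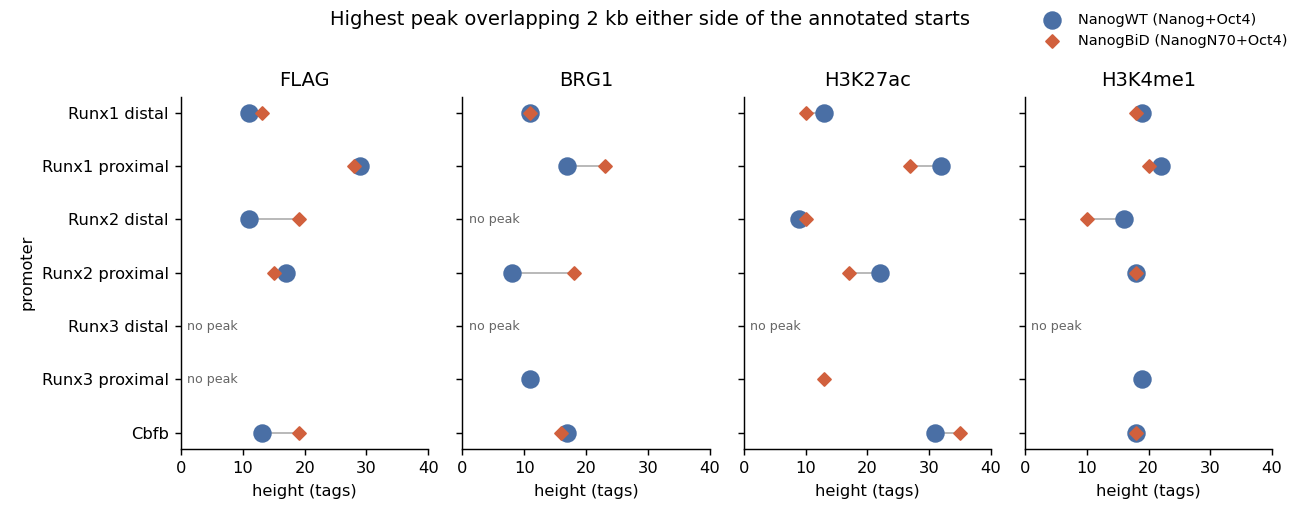
Height in tags (horizontal axis) of the highest peak overlapping 2 kb either side of each annotated start (vertical axis) for the 4 targets, in NanogWT (circles) and NanogBiD (diamonds), 1 merged library each. A diamond inside a circle marks equal heights, and the Runx3 distal promoter had no peak of any target.

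At single regions, the largest differences in Runx2 lay between its promoters, 30.1 to 33.8 kb upstream of the proximal start and inside the gene's introns. At region 33 (chr17:44770483-44771904) the NanogWT height of FLAG was 19 and the NanogBiD height 37, which gave a ratio of 1.95 (1.092 to 3.585). BRG1 had no peak there in NanogWT and a height of 27 in NanogBiD, and H3K27ac likewise none and 20. No H3K4me1 peak was listed there in either arm. At region 32 (chr17:44766706-44769077) FLAG stood at 33 and 40, BRG1 at 16 and 35, H3K27ac at 20 and 30, and H3K4me1 at 13 and 12. The BRG1 ratio of 2.19 had an interval of 1.18 to 4.23, whereas those of FLAG, H3K27ac and H3K4me1 included 1.

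These were the only regions of the 4 loci with an interval that excluded 1. They made 1 of 31 FLAG regions shared by the arms, beside 6.63% of shared FLAG regions of the genome higher and 1.78% lower. They made 1 of 21 BRG1 regions, beside 5.17% higher and 0.109% lower. None of 27 shared H3K27ac regions did so, beside 0.784% higher and 0.287% lower, and none of 43 shared H3K4me1 regions, beside 0.00723% higher and 0.294% lower. These intervals are not adjusted for the number of regions.

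Region 34 (chr17:44776326-44778136), which lies in Runx2 but at the promoter of Supt3, a gene for a subunit of the SAGA complex, had peaks of all 4 targets in both arms, with every height ratio's interval including 1. Its FLAG heights were 34 and 39, BRG1 24 and 31, H3K27ac 38 and 42 and H3K4me1 24 and 23. Its regulatory assignment to Runx2 or Supt3 was not tested. Region 38, 19.3 kb upstream of the distal start within Supt3, had FLAG at 35 and 26, with BRG1 at 19 and H3K27ac at 14 in NanogBiD only and H3K4me1 at 16 in NanogWT only. Region 27 had the lowest FLAG ratio of the shared regions, with heights of 37 and 25 and a ratio of 0.676 (0.390 to 1.15), with BRG1 at 16 and 15. Region 15, whose octamer unit is printed above, had FLAG at 16 and 22 and BRG1 at 16 in NanogBiD alone, with H3K27ac at 11 and H3K4me1 at 15 in NanogWT alone. Region 40 was the one Runx2 region with both FLAG, at 16, and BRG1, at 8, in NanogBiD only.

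**Figure D3:**
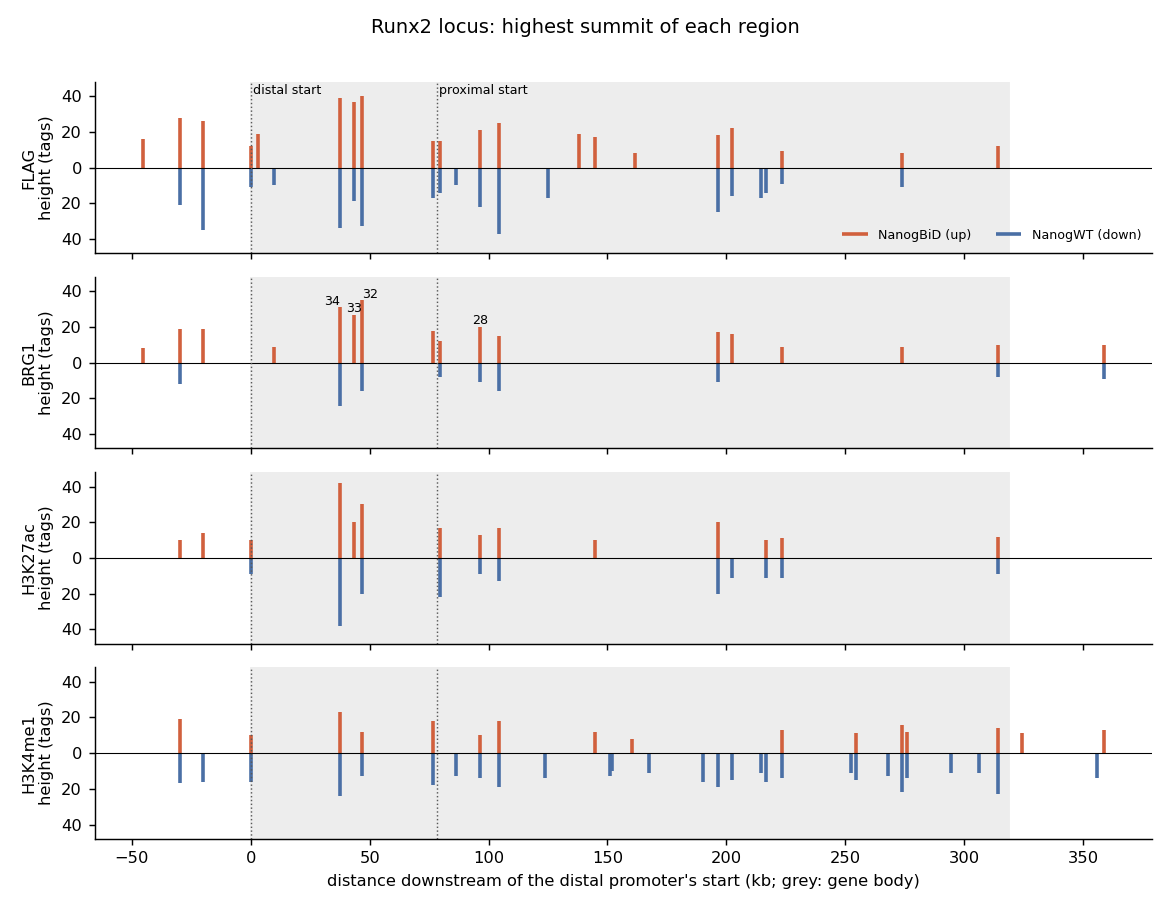
Heights in tags (vertical axes) of the highest summit of each Runx2 region against distance downstream of the distal start in kb, with NanogBiD drawn up and NanogWT down and the gene body in grey. Numbers name the 4 regions with the highest BRG1 summits in NanogBiD, and BRG1 had 17 regions with a NanogBiD summit and 9 with a NanogWT summit.

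Of the 17 BRG1 regions at Runx2, 9 were shared, 8 were in NanogBiD only and none was in NanogWT only. In the genome 48.4% of BRG1 regions were in NanogBiD only and 9.91% in NanogWT only, so that the Runx2 share of 47.1% (23.0 to 72.2%) was near the background. Of the 9 shared regions 8 were higher in NanogBiD, and their median log2 ratio was 0.58, beside 0.14 over the genome, where 14230 of 24738 shared BRG1 regions were higher. At the 14 FLAG regions of Runx2 shared by the arms, 7 were higher and 6 lower, with a median log2 ratio of 0.05. Over the genome 26074 of 44529 shared FLAG regions were higher and 15443 lower, with a median of 0.15.

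In the windows of the 3 other genes, more shared BRG1 regions were lower than higher in NanogBiD. These regions were few, and the difference from Runx2 was not tested. At Runx1, 8 BRG1 regions were shared, of which 3 were higher and 4 lower in NanogBiD, and the median log2 ratio was -0.13. In the Cbfb window, which holds 5 other protein-coding genes, NanogBiD had the lower height at all 3 shared regions (median -0.22). Only region 5 of the 3 lay at the Cbfb promoter, and regions 10 and 11 lay at those of D230025D16Rik and B3gnt9. At Runx3, the 1 shared region, upstream of the gene, stood at 14 and 9. Over the 4 genes the median log2 BRG1 ratio was 0.15 at 21 regions.

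**Figure D4:**
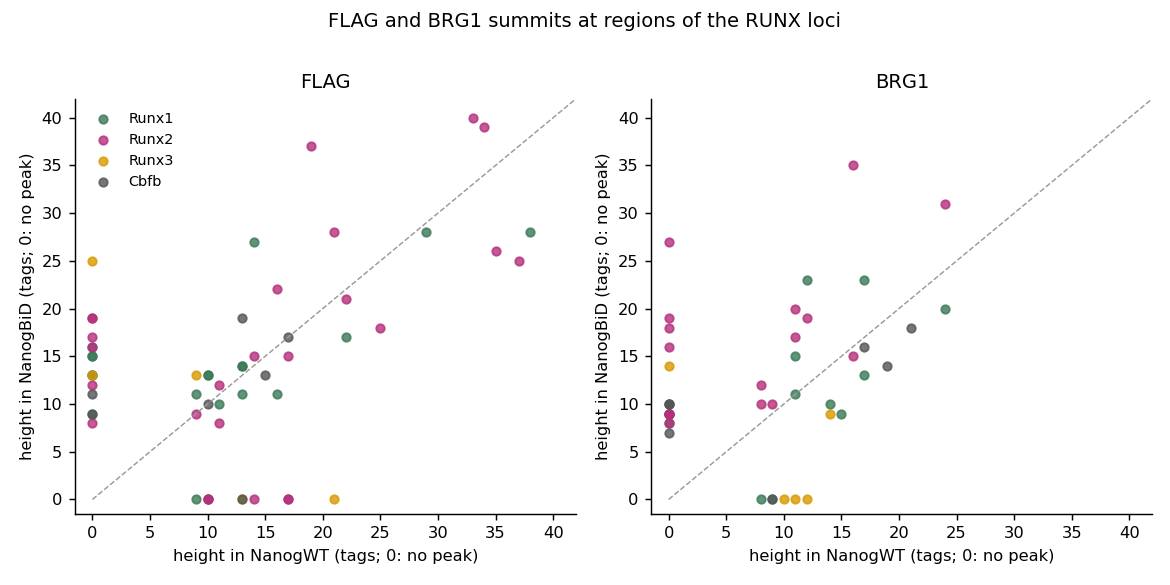
FLAG and BRG1 summit heights in tags of each region of the 4 loci in NanogBiD (vertical axis) against NanogWT (horizontal axis), with 0 for a region without a peak and a dashed line of equality. Runx2 held the highest NanogBiD summits, 40 for FLAG and 35 for BRG1, both at region 32.

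At Runx1, the blood regulator, 19 of the 31 regions lay at or downstream of the proximal start. Region 13 (chr16:92638656-92641056), 55.1 kb downstream of that start, had FLAG at 14 in NanogWT and 27 in NanogBiD and BRG1 at 12 and 23. Its FLAG ratio was 1.93 (0.977 to 3.98) and its BRG1 ratio 1.92 (0.915 to 4.23), so that both intervals included 1. H3K27ac stood at 21 and 24 there and H3K4me1 at 18 and 18. Region 18, 14.4 kb downstream of the proximal start, had the highest NanogWT FLAG summit of the locus, at 38, and stood at 28 in NanogBiD, with BRG1 at 24 and 20. Region 17 beside it had the lowest FLAG ratio of the shared regions, with 16 and 11 (0.688, 0.289 to 1.58), and BRG1 at 11 and 15. Region 2, beyond the 3' end, was the one Runx1 region with FLAG, at 9, and BRG1, at 8, in NanogBiD only. Between the promoters, 4 regions (20, 21, 23 and 26) had FLAG in NanogBiD alone at heights of 13 to 16, all without BRG1. Region 25, also between them, had FLAG at 9 in NanogWT alone and no BRG1. Regions 20 and 26 had no peak of any other target. Across all the loci, 6 of the 16 regions whose FLAG peak was confined to NanogBiD were of this kind. That share of 37.5% (15.2 to 64.6%) stood beside 41.66% in the genome. The window at region 28, next to the distal start, held 5 RUNX matches and 2 AP-1 matches, with FLAG at 11 and 10.

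**Figure D5:**
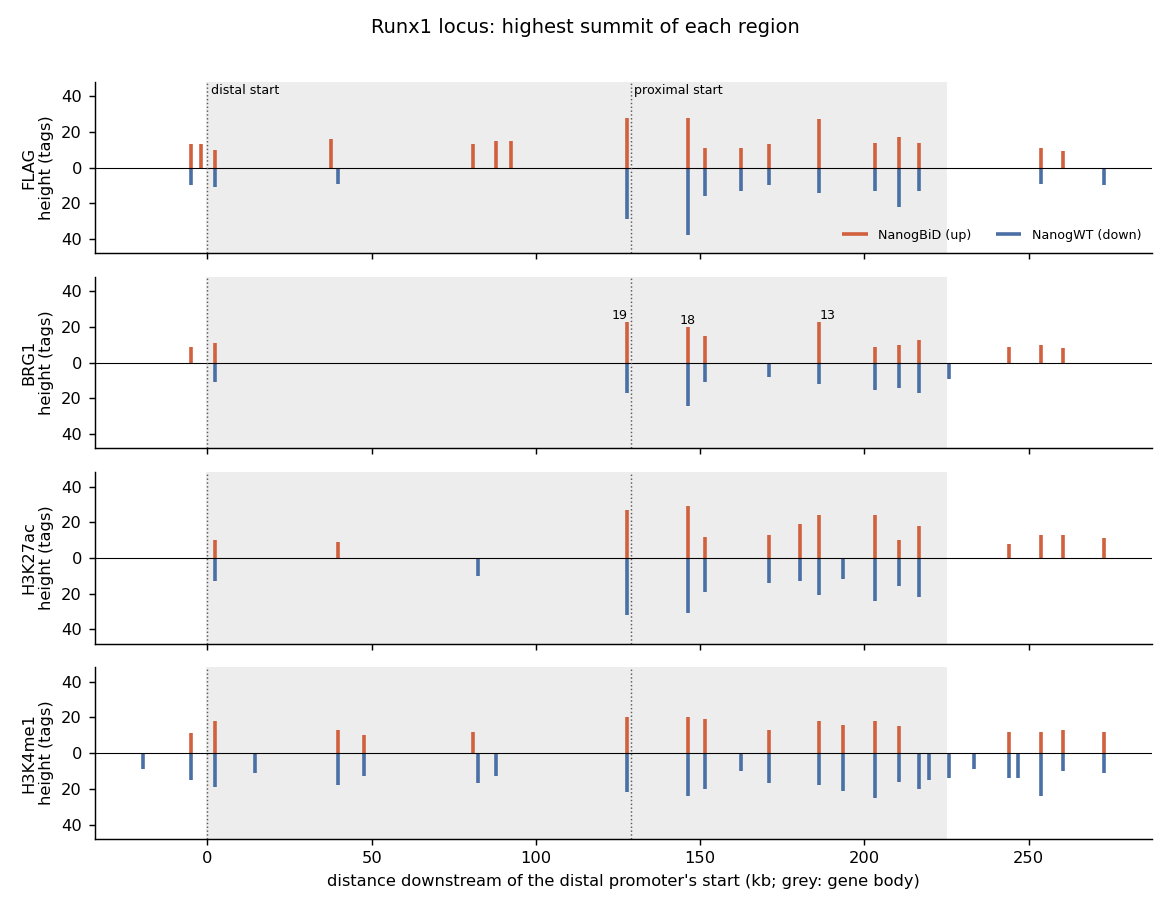
Heights in tags (vertical axes) of the highest summit of each Runx1 region against distance downstream of the distal start in kb, with NanogBiD up and NanogWT down and the gene body in grey. The 3 regions with the highest BRG1 summits in NanogBiD, 13, 18 and 19, are numbered, and no BRG1 summit lay between region 28 near the distal start and region 19 at the proximal start in either arm.

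At Runx3 all 5 FLAG regions lay outside the gene body. Region 12 (chr4:135221443-135222418), in an intron of the neighbouring gene Clic4, a chloride channel family member, had FLAG at 25, BRG1 at 14 and H3K27ac at 12 in NanogBiD and none of the 3 in NanogWT. Region 10 (chr4:135212873-135214081), over a Clic4 exon, showed the opposite, with FLAG at 21 and BRG1 at 12 in NanogWT only, H3K27ac at 17 and 9 and H3K4me1 at 21 and 12. Both lay over 60 kb downstream of the Runx3 proximal start, at 69.0 and 60.4 kb. Region 8 was the only FLAG region shared by the arms, at 9 and 13. Inside Runx3 itself there were only 3 regions, each with H3K4me1 and none with FLAG.

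At Cbfb, both FLAG and BRG1 were present in NanogBiD alone at 2 regions. These were region 3, 16.9 kb upstream with FLAG at 11 and BRG1 at 10, and the intronic region 8, with FLAG at 9 and BRG1 at 7. Region 9 over the end of the gene had the reverse, with FLAG at 13 and BRG1 at 9 in NanogWT only. Across all the loci, 16 regions had a FLAG peak confined to NanogBiD, and BRG1 was likewise confined at 5. This share of 31.25% (11 to 58.7%) stood beside 35.25% in the genome. For NanogWT the share was 2 of 10, or 20% (2.52 to 55.6%), beside 10.36%. Both exact intervals contained the genome's values. The lowest heights of the lists ranged from 6 to 8 and their medians from 13 to 16. The lowest FLAG ratio at a shared region was at region 10, the promoter of D230025D16Rik, with 15 and 13.

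Over the 4 loci, 14 of the 98 numbered regions had a peak in all 8 lists, or 14.3%, beside 12.03% of all regions. Merged target by target, FLAG was found at 57 regions, of which 31 were shared, 16 in NanogBiD only (28.1%, beside 33.7% of FLAG regions in the genome) and 10 in NanogWT only (17.5%, beside 15.8%). BRG1 was found at 43, of which 16 were in NanogBiD only (37.2%, beside 48.4%) and 6 in NanogWT only (14.0%, beside 9.91%). H3K27ac was found at 45, of which 14 were in NanogBiD only (31.1%, beside 29.1%) and 4 in NanogWT only (8.89%, beside 14.6%). The exact intervals of these 6 shares all contained the genome's values.

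Of the 16 regions with BRG1 in NanogBiD only, 14 had FLAG in NanogBiD (87.5%, beside 87.6% of such regions in the genome). At 9 of the 14 (64.3%, beside 57.95% in the genome), FLAG was also present in NanogWT, as at Runx2 regions 8, 12, 15, 31, 33 and 38. H3K27ac was likewise in NanogBiD only at 7 of the 16, namely Runx1 regions 2, 3 and 5, Runx2 regions 33 and 38, Runx3 region 12 and Cbfb region 6. That share of 43.8% had an exact binomial interval of 19.8 to 70.1%, which includes the 25.8% of the genome.

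H3K4me1, merged from its own lists, was found at 83 regions, the most of any target, of which 43 were shared, 34 in NanogWT only (40.96%, beside 34.8%) and 6 in NanogBiD only (7.23%, beside 17.3%). The interval of the NanogBiD-only share, 2.70 to 15.1%, lay below the genome's value. That of the NanogWT-only share, 30.3 to 52.3%, contained the genome's value. At Runx2, 17 of 33 regions merged in this way were in NanogWT only, or 51.5% (33.5 to 69.2%). The Runx2 interval also contained the genome's 34.8%. At 31 of the 43 shared regions the NanogBiD height was the lower one and at 8 the higher one, beside 27462 lower and 9892 higher of 41500 in the genome. The median log2 ratio was -0.22, beside -0.18 over the genome. H3K4me1 stood alone, with no other target in either arm, at 29 of the numbered regions, of which 18 were in NanogWT only (62.1%, beside 57.8% of such regions in the genome). The 29 were 29.6% of the regions of the loci (20.8 to 39.7%), beside 21.0% of all regions, which that interval contains. Regions of one locus share their chromatin and libraries, so these intervals are descriptions of counting error and not tests.

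RUNX motif matches were about as frequent at FLAG summits of these loci as elsewhere. In windows of 300 bases on the summit, 14 of 57 regions (24.6%) held TGTGGT, beside 23.9% of all NanogWT and 24.3% of all NanogBiD FLAG summits. AP-1 was found at 20 (35.1%, beside 21.4 and 24.6%) and TEAD at 14 (24.6%, beside 19.4 and 18.3%). OCT was found at 3 (5.26%, beside 4.24 and 5.43%), which were Runx1 region 18 and Runx2 regions 13 and 15. SOX was found at 17 (29.8%, beside 36.2 and 39.2%). A match is a sequence description and does not show that a factor was bound.

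The genes most like each member were those nearest in Euclidean distance over the 8 lists of log2 peaks plus 1, among 17732 genes. They were Celf4 (distance 0.437), Mical2 and Rap1gap2 for Runx1, and Dock9 (0.384), Megf11 and Hpse2 for Runx2. For Runx3 they were Otop2 (0.471), Mroh5 and Mrpl14, and for Cbfb Gm6525 (0.245), Cry2 and Prr7. Dock9, for example, had 9 and 19 BRG1 peaks and 27 and 16 H3K4me1 peaks, close to the numbers of Runx2.

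Other genes of the pathway were counted in the same windows. Of 16 RUNX cofactors, 15 were found under their symbols, among them the TLE corepressors, the acetyltransferases Ep300 and Crebbp and the ETO family genes. BRG1 peaks were more numerous in NanogBiD at 13 of the 15 and fewer at 1, beside 64.7% and 12.8% of all gene windows, with a median of 5 in NanogWT and 8 in NanogBiD, beside 3 and 5 over all genes with a BRG1 peak. Tle3 had 3 and 10 BRG1 peaks, Tle4 3 and 11, and Ets1, a partner of RUNX1 on DNA, 5 and 5. FLAG peaks were more numerous at 10 and fewer at 2, beside 59.9% and 18.0% (medians 9 and 9, beside 5 and 6). H3K27ac peaks were more numerous at 13 and fewer at 2, beside 47.4% and 19.6% (medians 6 and 7, beside 4 and 4), and Hipk2, a kinase of RUNX proteins, had 13 and 7. H3K4me1 peaks were more numerous at 2 and fewer at 9, beside 19.1% and 60.8% (medians 11 and 9, beside 7 and 6).

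Of 16 RUNX target genes, BRG1 peaks were more numerous at 8 and fewer at 4 (medians 3 and 3.5), beside 64.7% and 12.8% of all gene windows. FLAG peaks were more numerous at 9 and fewer at 4 (medians 4.5 and 5.5), beside 59.9% and 18.0%. H3K27ac peaks were more numerous at 6 and fewer at 0 (4.5 and 5), beside 47.4% and 19.6%, and H3K4me1 peaks more numerous at 5 and fewer at 6 (6 and 6.5), beside 19.1% and 60.8%. The genes named from both lists were chosen after their values were seen. Col1a1, the collagen gene of bone and fibroblasts, had 4 and 9 BRG1 peaks, Alpl, the alkaline phosphatase of osteoblasts, 2 and 5, and Spp1, which encodes osteopontin, 7 and 6. Csf1r, a macrophage receptor gene, had 5 and 6, and Cd4, which RUNX3 silences in T cells, 7 and 9.

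The labelled cell type was checked by H3K27ac peaks overlapping 2 kb either side of the starts of marker genes. Fibroblast markers had such a peak at 9 of 10 genes in both arms. Over all 21617 genes with an annotated start, 55.9% had one in NanogWT and 58.8% in NanogBiD. Blood cell markers had one at 1 of 10 in NanogWT and 2 in NanogBiD, osteoblast and chondrocyte markers likewise at 1 and 2, and pluripotency markers at 2 and 3.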

How the data were processed

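CUT&Tag of FLAG, BRG1, H3K27ac and H3K4me1 was analysed in 2 arms of mouse embryonic fibroblasts on day 5, with 1 merged library per group. Per the study's methods and the submitters' notes, the authors trimmed reads with Trim Galore 0.6.4, aligned them to mm10 with Bowtie2 2.4.5, filtered them with SAMtools 1.16.1, merged replicates and called peaks with MACS 1.4.2. The number of replicates merged and the read depth were not given in the sources used here. The deposited peak score is the caller's p-value on a negative log10 scale multiplied by 10, with a lowest value of 50, and the deposited summit signal is the tag pileup, called height here and not scaled to depth. No control library was used here, and a deeper library lists more peaks and higher summits.

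Peaks were read with Python 3.11.15 and pandas 2.3.3, counted in gene windows when overlapping by 1 base, and merged into regions where they overlapped or touched. Ratios of counts or heights carry exact (Clopper-Pearson) 95% intervals from SciPy 1.17.1. Gene bodies and starts came from GENCODE, where a transcript subject to nonsense-mediated decay lengthens Runx2, and sequences came from RefSeq and the GRCm38 genome. Regions were named by rule where they overlapped 2 kb either side of a member's start, had FLAG and BRG1 in 1 arm only, or had the FLAG height that changed most. All other regions named, such as Runx2 regions 34 and 38 and Runx1 regions 18, 20, 21, 23 and 26, were chosen after their values were seen. Counting was tested on simulated peaks. The members and gene lists were chosen with earlier results of these data known. Alternative thresholds, list sizes and windows are given in the closing section.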

Additional observations from a re-analysis of the deposited data

How the results depend on the processing

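Of 44 recomputed ratios of peak numbers over the 4 loci, 41 stayed within the main counting interval. When each list was cut to its 20000 best-scoring peaks the ratio was 0.583 for FLAG, 0.588 for BRG1 and 1 for H3K4me1, and the cause was not tested, although this setting makes all lists equal in size. H3K27ac stood at 0.857 under that setting and at 0.941 with heights of at least 15. The other settings were a score of at least 100, gene bodies alone, flanks of 20 or 100 kb, the omission of each locus in turn and, chosen after seeing the data, gene bodies of coding transcripts only. Under these 9 settings no ratio crossed 1, and without the Runx2 locus BRG1 stood at 1.11 and H3K4me1 at 0.702 (0.436 to 1.12). Of 44 median log2 height ratios, 42 stayed within the interval of the main median. For H3K4me1 the median was -0.38 with scores in place of heights and -0.042 after subtraction of the genome-wide median. The median for BRG1 ranged from -0.09 to 0.40 and that for FLAG from -0.15 to 0.24, so neither has a stable direction. Of 107 ratios at single loci, 98 stayed within the main interval, and 8 of the other 9 were settings that left Runx3 or Cbfb with no NanogBiD peak. No paired analysis was possible because the labels carry no replicate numbers and every group is a single merged library. Heights of 7 to 42 tags at these loci allow only large height ratios to be told from counting error, and depth is unknown.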
